A study of Homo sapiens with 4 samples.

Results

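The 10 enzymes examined here make serine from a glycolytic intermediate and pass its carbon to folate: PHGDH, PSAT1, PSPH, SHMT1, SHMT2, MTHFD1, MTHFD1L, MTHFD2, MTHFD2L and ALDH1L2. They were chosen by name, through the current or former gene symbol of each probe. All 10 were present among the 17559 named genes on the array, with 12 probes in all, and every one of these probes lay above the blank-spot limit (the mean of the blank spots plus 2 SD) on all 4 arrays.

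Messenger RNA came from Panc1, an established human pancreatic carcinoma line, on 1 array of parental cells that had received no gemcitabine and 1 array for each of the resistant clones GR1, GR3 and GR4. Gemcitabine is a deoxycytidine analogue that stops DNA synthesis. Per the labels, the clones descend from 1 population that was adapted over 2 months from 2 ng/ml to 30 ng/ml of the drug and then cloned by limiting dilution, and parental and resistant cells alike grew with 10% serum. The treatment text of the labels names the clones GR1, GR2 and GR3, whereas the sample titles, followed here, name GR1, GR3 and GR4. Whether the clones were kept in gemcitabine until RNA was taken is not given in the sources used here. Nothing in the labels describes separate cultures of a clone, so a p-value here reflects no more than how these arrays scatter. That scatter can hold both differences between clones and technical variation, which 1 array per clone cannot separate. Because the clones share 1 adapted population, they are not independent selections. A change already present in that population could appear in every clone, so agreement among the clones is not repeated evidence. The part of cloning by limiting dilution in the differences was not tested.

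Serine synthesis branches off glycolysis: PHGDH oxidizes 3-phosphoglycerate, PSAT1 transfers an amino group to the product from glutamate, and PSPH removes the phosphate. Serine hydroxymethyltransferase, SHMT1 in the cytosol and SHMT2 in mitochondria, then splits serine into glycine and a carbon unit held by tetrahydrofolate. In mitochondria MTHFD2 and MTHFD2L oxidize that unit, MTHFD1L releases it as formate, and ALDH1L2 burns it to carbon dioxide. The cytosolic enzyme MTHFD1 takes formate up again for purine and thymidylate synthesis. The transcription factor ATF4, to which several of these genes respond, is activated by amino acid shortage and other stresses.

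The arrays were alike in the share of gene probes above the limit, between 91.5% and 93.7%. The epithelial markers KRT7, KRT18, KRT19, EPCAM, CDH1 and SOX9 were above the limit on all 4 arrays. The mesenchymal gene VIM rose 7.14-fold in the clones (log2 difference 2.84 ± 0.17, limma adjusted p = 0.0442; 1.93 and 0.0504 with the background-column model described below), 1 of 8 tested mesenchymal markers to pass. The other 7 did not pass, and the summed normalized signal of the 8 was 1058 units in parental cells and 2991 to 3460 units in the clones. VIM was the brightest of the 8 in each clone, at a log2 signal of 11.3 to 11.6 against 8.59 in parental cells. The median log2 difference of the 8 was −0.28, with 3 above the parental array in all 3 clones and 3 below it in all 3. None of the 6 epithelial markers passed. KRT19 and CDH1 lay below the parental array in all 3 clones, at −0.81 ± 0.40 and −0.30 ± 0.10. The other 4 lay above it in all 3: KRT7 at 1.01 ± 0.22, KRT18 at 0.94 ± 0.14, SOX9 at 0.81 ± 0.19 and EPCAM at 0.39 ± 0.15. The acinar gene CPA1 and the islet gene GCG were above the limit on 0 arrays, and the leukocyte gene PTPRC on 2, by at most 2.10 intensity units over the blank mean. Other markers of these cell types did give signal on all 4 arrays, such as CTRB1 (47.5 to 59.6 units) and INS (6.14 to 9.68 units), and CD14, a monocyte marker, lay at −1.44 ± 0.19 in the clones (limma adjusted p = 0.0518). The part of these markers in the results was not tested. The spots of a control probe, Positive Control 2, exceeded the blank mean by 8855 units in parental cells and by 15547 to 16703 units in the clones; the part of this gap in the results below was not tested. By limma, 674 of 16592 named genes tested (4.06%) differed at an adjusted p under 0.05, and 53.4% of these were higher in the clones. That share was 63.8% with median scaling between the arrays, 68.4% in the authors' deposited table and 37.0% when the normexp model used the background column of the scanner files (background-column normexp). This model, here and on blank-subtracted signals below, added 50 units to each signal before the log2 step. By construction that offset makes the log2 differences of dim probes smaller.

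The first comparison set the enzymes of the resistant clones against those of the parental line. PSAT1 rose 4.01-fold and was the one enzyme of the 10 to pass the test, so 1 of 10 passed as higher against 2.17% of all genes, and 0 of 10 as lower against 1.89%. The next largest differences were those of MTHFD2 and PHGDH, higher than parental in all 3 clones and short of the threshold. The median log2 difference over the 10 enzymes was 0.51, against −0.02 over all genes tested. Above the parental array in all 3 clones were 5 of 10, PHGDH, PSAT1, MTHFD1, MTHFD1L and MTHFD2, beside 35.3% of all genes. By its brighter probe alone 1 of 10, MTHFD2L, lay below it in all 3, beside 38.2% of all genes at or below it in all 3. The dimmer MTHFD2L probe lay above it in all 3. At least 2-fold higher in all 3 clones was PSAT1, 1 of 10, beside 3.66% of all genes, and 0 of 10 were at least 2-fold lower in all 3, beside 3.6%. The counts shift with the scaling: PSAT1, MTHFD2 and PHGDH, 3 enzymes of the authors' deposited table, were at least 2-fold higher in every clone, and 2 passed the test, PSAT1 and PHGDH.

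**Figure D1:**
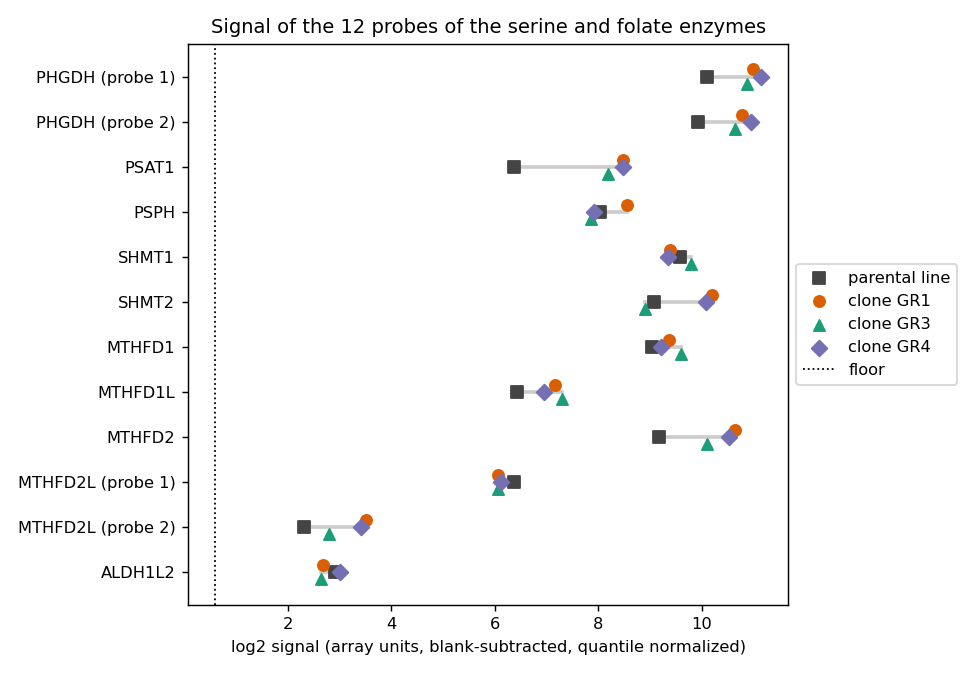
Log2 signal (array units after blank subtraction and quantile normalization) of the 12 probes on the parental array (square) and on clones GR1, GR3 and GR4. Each grey bar spans the 4 arrays of a probe, and the dotted line is the floor of 0.61; the 3 clones lie to the right of the parental square for PSAT1, MTHFD2, MTHFD1L, MTHFD1, both probes of PHGDH and the dimmer probe of MTHFD2L.

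The serine pathway opened with PHGDH, the enzyme that commits 3-phosphoglycerate to serine. Its gene lies on chromosome 1 (GRCh38.p14, 119711934 to 119744215). The brighter of its probes gave a log2 signal of 10.10 in parental cells and 10.99, 10.87 and 11.14 in GR1, GR3 and GR4. All 3 clones were above the parental array, by 1.71-fold to 2.06-fold. The log2 difference was 0.90 ± 0.15 (SE of the fit, 3 clones against 1 parental array), with a 95% interval from 0.45 to 1.35 (limma adjusted p = 0.0644). The other PHGDH probe gave 9.93 in parental cells and 10.78, 10.63 and 10.95 in GR1, GR3 and GR4, a log2 difference of 0.85 ± 0.17 (limma adjusted p = 0.0786). Both probes placed the clones in the same order, GR4 above GR1 above GR3. PHGDH passed the test in the authors' deposited table (log2 difference 1.18, adjusted p = 0.0461), with normexp on blank-subtracted signals (0.87, adjusted p = 0.0350), with probes above the limit on all 4 arrays (0.0369) and with eBayes set to trend and robust (0.0207).

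PSAT1, phosphoserine aminotransferase (chromosome 9, 78297125 to 78330093), had a single probe. It read 83.1 normalized units in parental cells and 356, 293 and 356 in GR1, GR3 and GR4. GR1 and GR4 stood 4.28-fold and GR3 3.52-fold above the parental array. On the log2 scale these were 6.38, 8.48, 8.19 and 8.47, a difference of 2.00 ± 0.17 with a 95% interval from 1.5 to 2.51 (limma adjusted p = 0.0442). That adjusted p is the lowest any gene reached, and 281 genes share it. The call was lost with no filter on dim probes (adjusted p = 0.0541), with a floor 4 times higher (0.0547), with background-column normexp (log2 difference 1.39, 0.0846) and with any clone left out (0.0768 to 0.211). With no filter on dim probes, and with any clone left out, 0 genes passed, so those losses are not particular to PSAT1. A single gene tested alone could not do better than p = 0.25 in an exact permutation of 4 arrays with 1 parental. The call thus rests on the limma model. That model takes the lone parental array to scatter as the clones do and shares part of the spread between genes.

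PSPH, the phosphatase of the last step (chromosome 7, 56011064 to 56051444), read 8.04 in parental cells and 8.55, 7.86 and 7.92 in GR1, GR3 and GR4. GR1 was 1.43-fold above the parental array, while GR3 and GR4 lay slightly below it. The log2 difference of 0.07 ± 0.35 had a 95% interval from −0.93 to 1.07 (limma adjusted p = 0.912). Its direction depended on 1 clone and on the background: without GR1 the difference was −0.15, and with background-column normexp −0.80. PSPH has a related pseudogene, and hybridization of related transcripts to the probe was not tested.

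**Figure D2:**
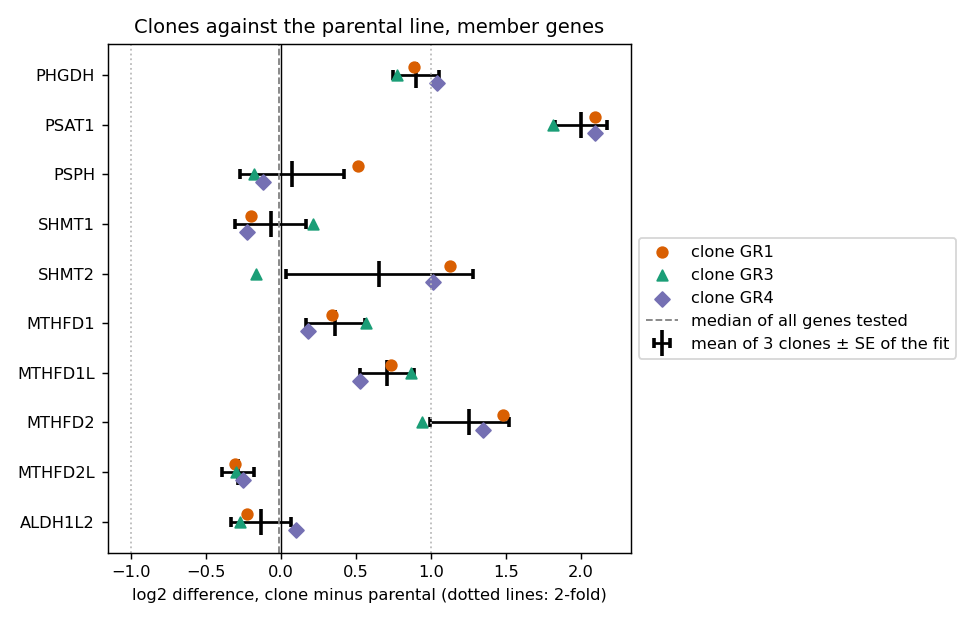
Log2 difference of each clone from the parental array for the 10 genes (symbols), with the mean of the 3 clones and the SE of the fit (black). PSAT1 stands near 2 in all 3 clones, while SHMT2 is near 1 in GR1 and GR4 and below 0 in GR3; the dashed line marks the median of all genes tested, −0.02.

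Of the serine hydroxymethyltransferases, the mitochondrial SHMT2 divided the clones. Its probe (gene on chromosome 12, 57229711 to 57234935) read 537 normalized units in parental cells and 1171, 477 and 1082 in GR1, GR3 and GR4. GR1 and GR4 were 2.18-fold and 2.02-fold above the parental array, and GR3 was 1.13-fold below it. The mean log2 difference was therefore 0.66 ± 0.62, with a 95% interval from −1.15 to 2.46 (limma adjusted p = 0.538), and it was 1.07 without GR3. The SD over the 3 clones, 0.72 log2 units, was the largest among the 10 enzymes, and its clones alone ranged over at least 1 log2 unit, 1 of 10 beside 4.32% of all genes. The cytosolic SHMT1 (chromosome 17, 18327873 to 18363550) ran the other way, at 9.58 in parental cells and 9.38, 9.79 and 9.35 in GR1, GR3 and GR4. Here GR3 was the highest array and the clones straddled the parental value. The SHMT1 log2 difference was −0.07 ± 0.24, with a 95% interval from −0.75 to 0.61 (limma adjusted p = 0.868). Its sign flipped with median scaling (0.20), with no normalization (0.24) and in the authors' deposited table (0.20).

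The change of SHMT2 less that of SHMT1 was 1.32 log2 units in GR1, −0.38 in GR3 and 1.24 in GR4. For MTHFD2 less MTHFD1, which stand at the mitochondrial and the cytosolic end of the same route, it was 1.14, 0.37 and 1.17. GR3 was thus the clone in which the mitochondrial and cytosolic enzymes differed least or in the opposite sense for both pairs. MTHFD1L less MTHFD1 gave 0.40, 0.30 and 0.35, alike in the 3 clones. With 1 array per clone, these differences between clones have no test.

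MTHFD2, the mitochondrial methylenetetrahydrofolate dehydrogenase and cyclohydrolase (chromosome 2, 74198615 to 74217565), read 9.16 in parental cells and 10.65, 10.10 and 10.51 in GR1, GR3 and GR4. The clones were 2.79-fold, 1.92-fold and 2.55-fold above the parental array, with GR3 lowest. The log2 difference was 1.26 ± 0.26, with a 95% interval from 0.49 to 2.02 (limma adjusted p = 0.0831). It passed the test when only probes above the limit on all 4 arrays were fitted (adjusted p = 0.0357) or eBayes was set to trend and robust (0.0232), and it shrank to 0.23 with background-column normexp (adjusted p = 0.737).

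MTHFD2L, an isozyme of MTHFD2 (chromosome 4, 74114560 to 74303099), was read by a pair of probes that disagreed. The brighter gave 6.37 in parental cells and 6.07, 6.07 and 6.12 in GR1, GR3 and GR4, a log2 difference of −0.29 ± 0.11 (limma adjusted p = 0.181). The dimmer gave 2.32 on the parental array and 3.52, 2.81 and 3.43 on the clones, a log2 difference of 0.93 ± 0.35 (limma adjusted p = 0.185). Each probe separated all 3 clones from the parental array, in opposite directions. No direction is given for the gene, whose value was 0.32 with the mean of the probes. The dimmer probe stood only 4.96 intensity units over the blank mean in parental cells, where the SD of the blank spots was 0.66 units.

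MTHFD1L, the mitochondrial formate synthetase (chromosome 6, 150865702 to 151101887), read 6.43 in parental cells and 7.17, 7.30 and 6.96 in GR1, GR3 and GR4. The clones lay 1.44-fold to 1.82-fold above the parental array, GR3 highest. The log2 difference was 0.71 ± 0.18, with a 95% interval from 0.19 to 1.23 (limma adjusted p = 0.106). With background-column normexp it was 0.34, and with eBayes set to trend and robust it passed narrowly (adjusted p = 0.04995).

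MTHFD1, a cytosolic enzyme with several folate activities (chromosome 14, 64388353 to 64460025), read 9.03 in parental cells and 9.37, 9.60 and 9.21 in GR1, GR3 and GR4. Its log2 difference of 0.36 ± 0.20 had a 95% interval from −0.21 to 0.93 (limma adjusted p = 0.310). ALDH1L2, the mitochondrial formyltetrahydrofolate dehydrogenase (chromosome 12, 105019790 to 105084458), was the dimmest member, at 6.59 to 7.46 intensity units above the blank mean. It read 2.91 in parental cells and 2.68, 2.64 and 3.01 in GR1, GR3 and GR4. The clones overlapped the parental value, with a log2 difference of −0.13 ± 0.20 (limma adjusted p = 0.697), which was 0.0017 with background-column normexp.

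Grouped by role, the median log2 difference was 0.90 over the 3 serine synthesis enzymes, 0.15 over the 2 cytosolic folate enzymes and 0.66 over the 5 mitochondrial folate enzymes. The mitochondrial median of 0.66 is the value of SHMT2 itself. By clone it was 0.74 in GR1, −0.17 in GR3 and 0.53 in GR4, the values of MTHFD1L, SHMT2 and MTHFD1L. The negative sign in GR3 depends on the probe taken for MTHFD2L. Its brighter probe, used here, was at −0.30 in GR3, and with its dimmer probe, at 0.49, the GR3 median would be positive. The cytosolic median was 0.07, 0.39 and −0.02 in GR1, GR3 and GR4, and that of serine synthesis 0.89, 0.77 and 1.04. Without adjustment, 4 of 10 enzymes had a limma p under 0.05, PSAT1, PHGDH, MTHFD2 and MTHFD1L, beside 31.9% of all genes, so that count stood near the background.

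The promoters of 4 enzymes are shown because these are the members with an unadjusted limma p under 0.05. Promoter windows from RefSeq (GRCh38.p14), running from 250 bases before to 50 bases after an annotated start, were matched for 7 of the 10 genes by symbol, with 11 windows in all. Each line runs 5′ to 3′ on the plus strand, the coding strand of all 4 genes, and capitals mark the motif matches given below; for MTHFD1L, the first listed of its 4 windows is printed.
PSAT1 promoter, chr9:78296875-78297174: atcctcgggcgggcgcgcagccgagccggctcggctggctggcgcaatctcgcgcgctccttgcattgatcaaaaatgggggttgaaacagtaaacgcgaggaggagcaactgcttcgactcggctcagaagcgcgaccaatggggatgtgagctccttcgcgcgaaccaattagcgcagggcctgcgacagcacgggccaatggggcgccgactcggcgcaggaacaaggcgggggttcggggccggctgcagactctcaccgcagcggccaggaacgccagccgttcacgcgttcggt
PHGDH promoter, chr1:119711684-119711983: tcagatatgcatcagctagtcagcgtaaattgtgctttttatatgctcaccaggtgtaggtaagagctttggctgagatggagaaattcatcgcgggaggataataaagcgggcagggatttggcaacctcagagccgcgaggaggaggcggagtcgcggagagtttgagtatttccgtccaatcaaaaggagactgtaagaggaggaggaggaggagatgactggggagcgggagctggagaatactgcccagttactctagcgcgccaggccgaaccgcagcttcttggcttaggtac
MTHFD2 promoter, chr2:74198365-74198664: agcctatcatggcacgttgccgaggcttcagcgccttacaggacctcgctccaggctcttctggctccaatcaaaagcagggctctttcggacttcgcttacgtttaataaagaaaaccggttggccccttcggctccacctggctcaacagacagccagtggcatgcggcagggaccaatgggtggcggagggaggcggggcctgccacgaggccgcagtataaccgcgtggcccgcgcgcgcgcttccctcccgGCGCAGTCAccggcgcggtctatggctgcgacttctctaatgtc
MTHFD1L promoter, chr6:150866236-150866535: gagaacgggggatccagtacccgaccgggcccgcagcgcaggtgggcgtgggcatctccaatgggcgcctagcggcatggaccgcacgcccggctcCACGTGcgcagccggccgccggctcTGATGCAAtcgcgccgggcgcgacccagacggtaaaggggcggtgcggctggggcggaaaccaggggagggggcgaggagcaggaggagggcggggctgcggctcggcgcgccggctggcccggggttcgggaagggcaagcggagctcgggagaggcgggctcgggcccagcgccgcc

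Matches were sought on both strands for TGATGNAA, the core to which ATF4 binds with a C/EBP partner, for CACGTG, the E-box that MYC and other factors bind, and for TGACNNNGC, the core of the antioxidant response element. The windows of PSAT1 and PHGDH held none of the 3, which says only that these letters are not in these windows. The printed MTHFD1L window held TGATGCAA at positions −129 to −122 from its annotated start and CACGTG at −154 to −149. Window 2 of this gene, from another start, held them at 25 to 32 and −1 to 5. In window 3 they lay at −90 to −83 and −115 to −110, and window 4 held no match. The MTHFD2 window held the antioxidant core on the minus strand, at positions 7 to 15. No match overlapped another. Among members, TGATGNAA was found in 1 of 7 genes (MTHFD1L), against 4.46% of all genes with a window. CACGTG was found in 2 (MTHFD1 and MTHFD1L), against 8.77%, and the antioxidant core in 2 (MTHFD2 and MTHFD2L), against 16.1%. The shares per window were 3.62%, 7.26% and 13.3% of 35116 windows of the same length. No binding was measured here.

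By the largest deviation over the 3 clone differences, the genes most like PSAT1 among all genes tested were TMEM201 (0.04 log2 units), NOP16 (0.05), KIAA1549L (0.08), SKA3 (0.10) and UCK2 (0.10). NOP16 is a nucleolar protein of ribosome assembly, SKA3 a protein of the spindle and kinetochore complex, and UCK2 a uridine and cytidine kinase. All 5 passed the test, with log2 differences between 1.95 and 2.06, which follows largely from picking them by their likeness to PSAT1. The parental signals of TMEM201 and KIAA1549L were dim, at 2.23 and 2.21, and with background-column normexp their differences were 0.13 and 0.13 and that of SKA3 0.41; none of the 5 passed there.

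Among the 59 other tested genes of folate, glycine, serine and methionine metabolism, 5 rose and 0 fell. This is 8.47% as higher, against 2.17% of all genes. All 5 calls were lost with background-column normexp (adjusted p 0.0839 to 0.722) and with no normalization between the arrays (0.0506 to 0.0564). Both folate carriers of the cell surface were among them: SLC19A1, the reduced folate carrier, and SLC46A1, the proton-coupled folate transporter. SLC19A1 read 4.22 in parental cells and 5.62, 5.37 and 5.49 in GR1, GR3 and GR4 (log2 difference 1.27 ± 0.15, limma adjusted p = 0.0481). SLC46A1 read 5.06 and then 6.43, 6.37 and 6.26 (1.29 ± 0.13, limma adjusted p = 0.0444). All 3 clones lay above the parental array for both. With background-column normexp the differences were 0.12 and 0.23.

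The mitochondrial folate carrier SLC25A32 had a log2 difference of 1.42 ± 0.25 (limma adjusted p = 0.0676), with 7.05 in parental cells and 8.17 to 8.69 in the clones. It passed with background-column normexp (0.97, adjusted p = 0.0435), with probes above the limit on all 4 arrays (0.0259) and with eBayes set to trend and robust (0.0154). FOLR1, the folate receptor alpha, singled out after its values were seen, lay far lower in the clones, at 8.93 in parental cells and 3.80, 6.03 and 4.68 in GR1, GR3 and GR4. The gap was wide in every clone, but the clones spread over 2.24 log2 units, and the difference of −4.09 ± 0.97, or 17.0-fold, did not pass (limma adjusted p = 0.0972). It was −0.40 with background-column normexp. It passed when only probes above the limit on all 4 arrays were fitted (adjusted p = 0.0334), with normexp on blank-subtracted signals (0.0370) and with eBayes set to trend and robust (0.0414).

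**Figure D3:**
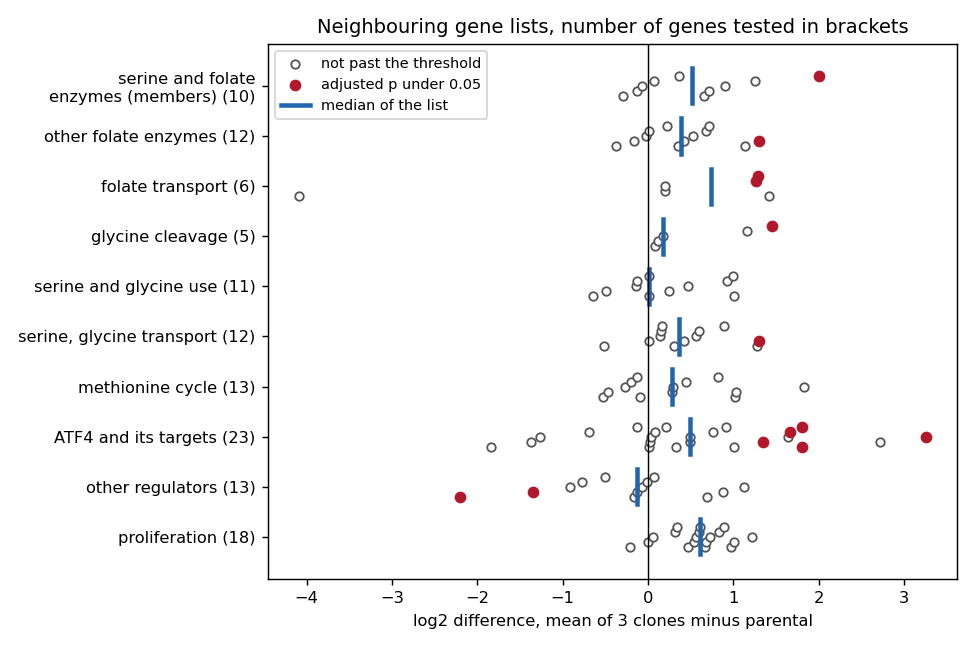
Mean log2 difference of the 3 clones from the parental array for every tested gene of 10 lists (points), with filled points past an adjusted p of 0.05 and a bar at each list's median. The member list holds 1 filled point of 10, PSAT1; the point near −4 is FOLR1.

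In the list of other folate enzymes 1 of 12 rose, beside 2.17% of all genes. This was QDPR, dihydropteridine reductase, which is known for recycling tetrahydrobiopterin rather than folate (1.30 ± 0.14, limma adjusted p = 0.0466). TYMS, thymidylate synthase, read 9.67 in parental cells and 9.64, 10.34 and 9.70 in GR1, GR3 and GR4, with GR3 alone clearly higher (0.23 ± 0.35, limma adjusted p = 0.704). GART and ATIC, the purine synthesis enzymes that consume formyl-folate, named after their values were seen, had log2 differences of 1.13 ± 0.23 and 0.68 ± 0.14 and did not pass. In the glycine cleavage list 1 of 5 rose, LIAS, the lipoic acid synthase that serves this complex and others (1.45 ± 0.17, limma adjusted p = 0.0481), and it was at 0.28 with background-column normexp. GLDC, the decarboxylase that gives the complex its name, was at 0.17 ± 0.22.

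Among serine and glycine transporters 1 of 12 rose, beside 2.17% of all genes. This was SLC38A1, a sodium-coupled neutral amino acid transporter (1.30 ± 0.12, limma adjusted p = 0.0443). Its call was lost with background-column normexp (1.04, limma adjusted p = 0.0839) and with no normalization (0.0517). The serine and glycine use list had 0 of 11 past the threshold and a median log2 difference of 0.02. The methionine cycle list had 0 of 13 and a median of 0.28. MTRR, which reactivates methionine synthase, and MTAP, which salvages methylthioadenosine, were its closest to the threshold, at 0.81 ± 0.12 (limma adjusted p = 0.0538) and 1.04 ± 0.14 (0.0523). Both are named after their values were seen.

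Of the 23 tested genes in a list of ATF4 and its targets, 5 rose and 0 fell, or 21.7% as higher beside 2.17% of all genes. Here PSAT1 was not counted, and 4 of the 5, SLC7A11, TRIB3, CHAC1 and SLC3A2, were known from earlier results of these data. The fifth, GPT2, a mitochondrial alanine transaminase, read 5.83 in parental cells and 7.52, 7.40 and 7.54 in GR1, GR3 and GR4 (log2 difference 1.66 ± 0.12, limma adjusted p = 0.0442). ASNS, asparagine synthetase, read 6.13 and then 8.98, 8.11 and 9.47. All 3 clones lay far above the parental array, GR3 least (2.72 ± 0.60, limma adjusted p = 0.0890). The ATF4 transcript itself was at 0.21 ± 0.17 and DDIT3, which encodes CHOP, at 0.08 ± 0.38, and neither passed; with background-column normexp ATF4 was at 1.24 (adjusted p = 0.372). Above the parental array in all 3 clones were 13 of 23, or 56.5% beside 35.3% of all genes, and the list median was 0.49. At least 2-fold higher in all 3 were 7, beside 3.66% of all genes, and 1 was at least 2-fold lower, beside 3.6%. Other members of the list lay lower, and 5 of 23 were above the parental array in no clone, beside 38.2% of all genes. These were NUPR1 at −1.84 ± 1.28, DDIT4 at −1.38 ± 0.22 (limma adjusted p = 0.0605), ATF3 at −1.27 ± 0.47, VEGFA at −0.69 ± 0.15 and CEBPB at −0.13 ± 0.20, named after their values were seen. CEBPB equalled the parental array in GR1, at 10.89, and lay below it in GR3 and GR4, while the rest lay below it in all 3 clones. With background-column normexp none of the 5 genes that rose kept its call (adjusted p 0.0712 to 0.278): SLC7A11 went from 3.26 to 0.63, GPT2 to 0.77, CHAC1 from 1.80 to 0.90, SLC3A2 from 1.35 to 0.86 and TRIB3 from 1.80 to 1.39.

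Among 13 other regulators, 2 fell and 0 rose, beside 1.89% of all genes called lower. MXI1, a MYC antagonist, fell by 2.21 ± 0.15 (limma adjusted p = 0.0442), and EIF2AK2, the RNA-activated eIF2α kinase and an interferon target, fell by 1.35 ± 0.12 (limma adjusted p = 0.0442). Both calls were lost with background-column normexp, where MXI1 was at −1.10 (adjusted p = 0.0731) and EIF2AK2 at −1.90 (0.250), and with no normalization (0.0505 and 0.0645). MYC had a log2 difference of 0.87 ± 0.14 (limma adjusted p = 0.0616). It passed under 5 alternatives, among them background-column normexp (1.53, adjusted p = 0.0432), and was at 0.36 with the mean of its probes (0.144). NFE2L2, the antioxidant factor NRF2, was at −0.01 ± 0.21, which turned to 0.25 with median scaling. Of 18 proliferation genes tested, 0 passed. Above the parental array in all 3 clones were 15, or 83.3% beside 35.3% of all genes, TK1 lay below it in all 3 (−0.21 ± 0.12), and the median log2 difference was 0.61. Their summed signal was 14827.5 normalized units in parental cells and 21246.4 to 21693 in the clones, while MKI67 was at 0.06 ± 0.22. The part of proliferation in the enzymes' differences was not tested.

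The second question was how the clones differ among themselves. GR3 was the lowest of the 3 clones for 6 of the 10 enzymes and the highest for 3, SHMT1, MTHFD1 and MTHFD1L, against 39.3% and 35.2% of all genes. For SHMT2 it lay 1.24 log2 units under the mean of GR1 and GR4, a gap of at least 1 that 0.808% of all genes shared. MTHFD2 followed with a gap of −0.48, and the other 8 enzymes lay between −0.38 and 0.43. In the lists around the enzymes, a gap of this size appeared for ASNS (−1.12) and for CBS (−1.22), the first enzyme of transsulfuration, named after its values were seen. Gaps of at least 1 the other way, GR3 above the other clones, were those of NUPR1 (2.49), FOLR1 (1.79) and VLDLR (1.30), which with SHMT2, ASNS and CBS make up all such gaps in these lists, markers aside. CBS was dim, at 1.66 in parental cells and 3.34, 2.67 and 4.45 in GR1, GR3 and GR4. In the proliferation list GR3 was the highest clone for 9 of 18 genes and the lowest for 7.

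**Figure D4:**
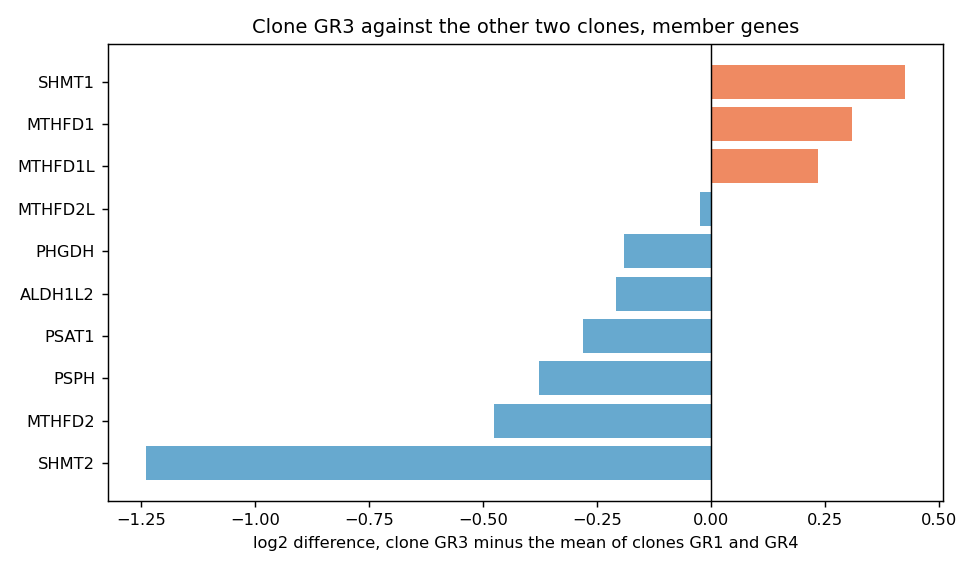
Log2 difference of clone GR3 from the mean of clones GR1 and GR4 for the 10 enzymes (bars, 1 array per clone, no error). SHMT2 stands at −1.24 and the cytosolic SHMT1 at the opposite end, 0.43.

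**Figure D5:**
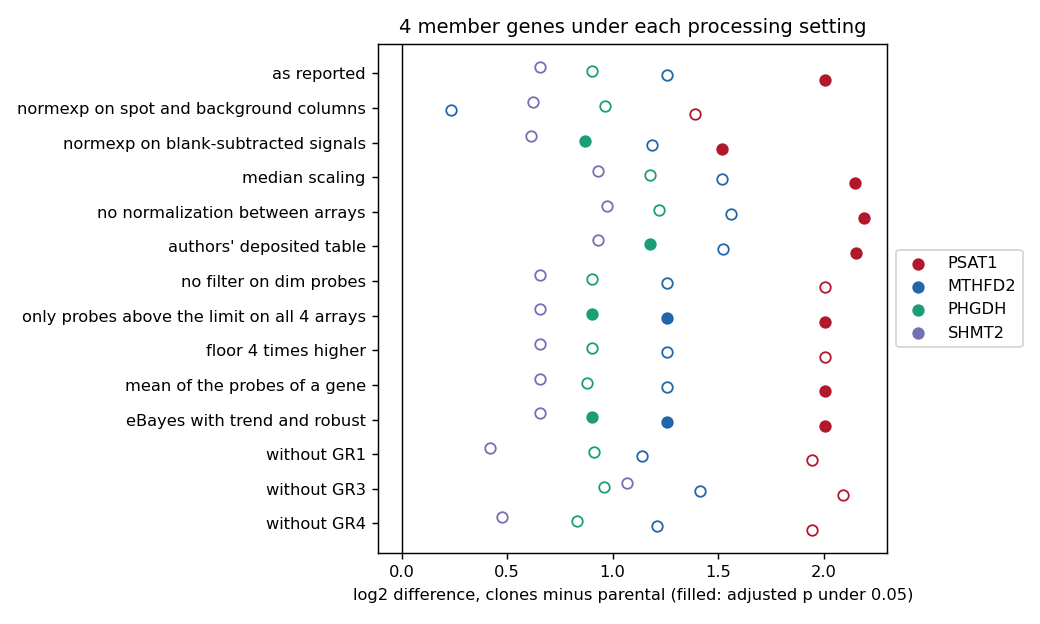
Log2 difference of the clones from the parental array for 4 enzymes under each processing setting, filled where the adjusted p is under 0.05. PSAT1 stays between 1.39 and 2.19; SHMT2 has no filled point, and MTHFD2 is lowest, at 0.23, with background-column normexp.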

How the data were processed

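Each array is a Toray 3D-Gene chip hybridized with Cy5-labelled amplified RNA. Per the file headers, the deposited scanner output holds a median intensity per spot and a background column. The authors also deposited an intensity table, from which the mean of the blank spots had been subtracted, per the series' design text. It equals the spot value minus the mean of the middle 90% of 2680 blank spots, rescaled on each array to a median of 25, within rounding. The background column follows the spot value (log correlation 0.932 to 0.962), so the blank mean was subtracted here instead. Of 24460 gene probes, 11 with a faulty spot were left out. Signals were quantile normalized, raised to a floor of 1.52 units (0.61 on the log2 scale) and put on the log2 scale. A probe was tested if it exceeded the blank mean by 2 SD in parental cells or in all 3 clones: 22796 probes, 16592 named genes.

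Clones and parental cells were compared in limma 3.58.1 (R 4.3.3), by a two-sided moderated test from lmFit and eBayes, adjusted over every tested probe by Benjamini-Hochberg, at a threshold of 0.05. Only the clones supply the 2 residual degrees of freedom, so the lone parental array is taken to scatter as they do. A gene with several probes is read by the brightest. Symbols were updated through the RefSeq annotation of GRCh38.p14 (17238 probes current, 2899 updated, 98 ambiguous, 4224 without a symbol). The enzymes and lists were chosen with earlier results of these data known. Named were all 10 enzymes, list genes past the threshold, 12 fixed genes where measured, and the 5 genes most like an enzyme past the threshold. The number of arrays limits the precision, and hybridization batches are not given in the sources used here. Alternatives changed the background correction, the normalization, the floor, the filter, the reading of probes, the eBayes setting and the clones used. The fit was tested on simulated data in which the parental array scattered as the clones did, so that assumption was not checked.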

Additional observations from a re-analysis of the deposited data

How the results depend on the processing

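No paired analysis was possible because the parental line has 1 array. Against 674 genes, 1 enzyme called, 1 enzyme at least 2-fold apart in all clones and a median of 0.51, the results moved as follows, and unless the setting's construction shows it the cause was not tested. With background-column normexp 146 genes and 0 enzymes passed, with a median of 0.22; with normexp on blank-subtracted signals 2203 and 2 passed. Median scaling gave 2 enzymes at least 2-fold apart and a median of 0.73. Over all genes, 1205 were at least 2-fold apart in all clones as reported and 1274 with median scaling. The count was 1314 with no normalization, 1311 in the deposited table and 1308 to 1768 with 1 clone left out. No normalization gave 208 genes, 3 enzymes at least 2-fold apart and a median of 0.78, and moved the median of all genes from −0.02 to 0.09, so that the enzymes stood 0.69 above it. The deposited table gave 1091 genes, 2 enzymes called, 3 at least 2-fold apart and a median of 0.74. With no filter on dim probes 0 genes and 0 enzymes passed by limma (5403 genes and 5 enzymes at an unadjusted p under 0.05). Probes above the limit on all 4 arrays gave 2127 genes and 3 enzymes, eBayes with trend and robust 2836 and 4, and the floor 4 times higher 0 enzymes. Leaving out 1 clone, with 1 residual degree of freedom left, gave 0 genes and 0 enzymes (3533 to 6079 genes and 3 to 5 enzymes at an unadjusted p under 0.05), 1 to 3 enzymes at least 2-fold apart (3 without GR3) and a median of 0.40 to 0.46.

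Signs turned for small differences. PSPH was at −0.80 and ALDH1L2 at 0.0017 with background-column normexp, where MKI67 was at −0.0045. SHMT1 was at 0.20 with median scaling, 0.24 with no normalization and 0.20 in the deposited table, where NFE2L2 was at 0.25, 0.30 and 0.26. MTHFD2L was at 0.32 with the mean of its probes. Leaving out 1 clone gave PSPH −0.15 to 0.20 (lowest without GR1), DDIT3 −0.17 to 0.23 (lowest without GR1), NFE2L2 −0.12 to 0.093 (highest without GR3), MKI67 −0.045 to 0.18 (lowest without GR3) and SHMT1 −0.21 to 0.013 (highest without GR4). PSAT1, PHGDH, SHMT2, MTHFD1, MTHFD1L and MTHFD2 stayed above 0 under all 13 alternatives. ALDH1L2 and the dimmer MTHFD2L probe lie closest to the blank spots, which limits their precision.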
